A study of Mus musculus with 8 samples.

Results

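miR-551b-3p (mmu-miR-551b-3p on the array) is 1 of 1023 mouse miRNAs measured in kidney RNA of CD-1 mice, and it was chosen because its signal was lower after tacrolimus. It was found by its name on the array, where it is represented by 2 probes of 20 spots each, 40 spots out of 40920. The study set 4 arrays of whole kidney RNA from animals that received a daily dose of 1 mg/kg tacrolimus over 28 days beside 4 arrays from controls that received physiological serum. CD-1 is an outbred stock, and every sample had an input of 0.1 µg and an integrity number of 9. Age, sex and the way tacrolimus was given are not stated in the labels. Nothing in the labels says that each array holds RNA of a separate mouse, so the spread between arrays may be technical.

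A miRNA is a short RNA that guides an Argonaute protein to messenger RNAs, mainly through its seed, the stretch near its 5′ end, and lowers their stability or translation. miR-551b-3p is cut from the 3′ arm of the Mir551b hairpin, and miR-551b-5p from the other arm. In human tumours miR-551b-3p has been linked to the transcription factor STAT3. Tacrolimus inhibits calcineurin, the phosphatase that activates NFAT transcription factors, and the drug is known to be toxic to the kidney.

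The sequences show what the probes could read. Both mature sequences are from RefSeq (GRCm38.p6), on the plus strand of chromosome 3, with the seed (bases 2 to 8) in capitals. miR-551b-3p lies at chr3:29416879-29416899 and miR-551b-5p at chr3:29416840-29416862, and by gene names in the same annotation Mir551b lies within Egfem1.
miR-551b-3p: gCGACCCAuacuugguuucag
miR-551b-5p: gAAAUCAAgcuugggugagaccu
The array probes are DNA and complementary to the miRNA, and the capital marks the base that the shorter probe of the pair lacks.
miR-551b-3p probe of 20 bases: ctgaaaccaagtatgggtcG
miR-551b-3p probe of 19 bases: ctgaaaccaagtatgggtc
miR-551b-5p probe of 15 bases: aggtctcacccaagC
miR-551b-5p probe of 14 bases: aggtctcacccaag
The 20-base probe pairs with bases 2 to 21 of miR-551b-3p and so with its whole seed, while the 19-base probe pairs with bases 3 to 21. The 5p probes pair with bases 9 to 23 and 10 to 23 and touch no seed base.

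Among 1679 mature mouse miRNA names in the RefSeq table, 0 others shared bases 2 to 8 of miR-551b-3p, and 0 others shared bases 2 to 7. Its seed holds the dinucleotide CG, as do the seeds of 219 names (13.0%). The longest run of letters it shared with another mature miRNA was 8 bases, with miR-29b-1-5p and miR-29b-2-5p.

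The arrays are described once here. The scale of an array was the 75th percentile over the 252 probes that all 8 arrays detected, an intensity of 1431 to 2527. Signals are given as a percentage of this scale or as the log2 of their ratio to it. A probe was called detected on an array where a share of 0.5 or more of the spots kept was well above background, and 9.60% to 15.2% of mouse miRNA probes were. Kidney tubule markers fitted the tissue label, since all 6 of 6 (miR-192-5p, miR-194-5p, miR-204-5p, miR-30a-5p, miR-10a-5p and miR-200b-3p) were detected on all 4 arrays of each group, whereas the liver miRNA miR-122-5p was detected on 0 arrays. Tacrolimus 4 and control 3 detected the fewest miRNAs, 147 and 157 against 184 to 220 on the others. Their negative control spots, with an SD of 20.3 and 9.69, spread more widely than those of all others (4.45 to 5.46) except control 1 (10.5). The slide had 2 rows, 1 with every control and 1 with every tacrolimus array, so treatment and position on the slide cannot be told apart. The number of arrays limits the precision.

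miR-551b-3p was a dim miRNA that stood lower on the tacrolimus arrays, by 1.15 on the log2 scale or 2.22-fold. Because it was chosen for this difference, its levels are described without a test. On the 20-base probe its signal was 5.56% of the scale on control 1, 4.38% on control 2, 2.59% on control 3 and 5.07% on control 4. On the tacrolimus arrays it was 1.75%, 2.93%, 1.62% and 1.60% in the same order. Controls 1, 2 and 4 were high, tacrolimus 1, 3 and 4 were low, and control 3 and tacrolimus 2 lay between them and crossed. The groups therefore overlapped by that 1 pair, with tacrolimus below control in 15 of 16 pairs of arrays.

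The mean was 4.40% ± 1.30 in control and 1.97% ± 0.637 in tacrolimus kidneys (SD, n = 4 each). On the log2 scale these were -4.56 ± 0.49 and -5.71 ± 0.41 (SD, n = 4 each), a difference of -1.15. In whole kidney, fewer cells that hold the miRNA and less of it per cell cannot be told apart. The probe was detected on 3 of 4 arrays in each group. The exceptions were control 3 and tacrolimus 4, where the dimmest detected probe lay at -4.84 and -4.64 on the log2 scale. miR-551b-3p, at -5.27 and -5.96 there, lay under these levels, so the difference of -1.15 rests in part on values under detection. Without these 2 arrays the remaining controls, 4.38% to 5.56%, all lay above the remaining tacrolimus arrays, 1.62% to 2.93%, with a difference of -1.30.

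**Figure D1:**
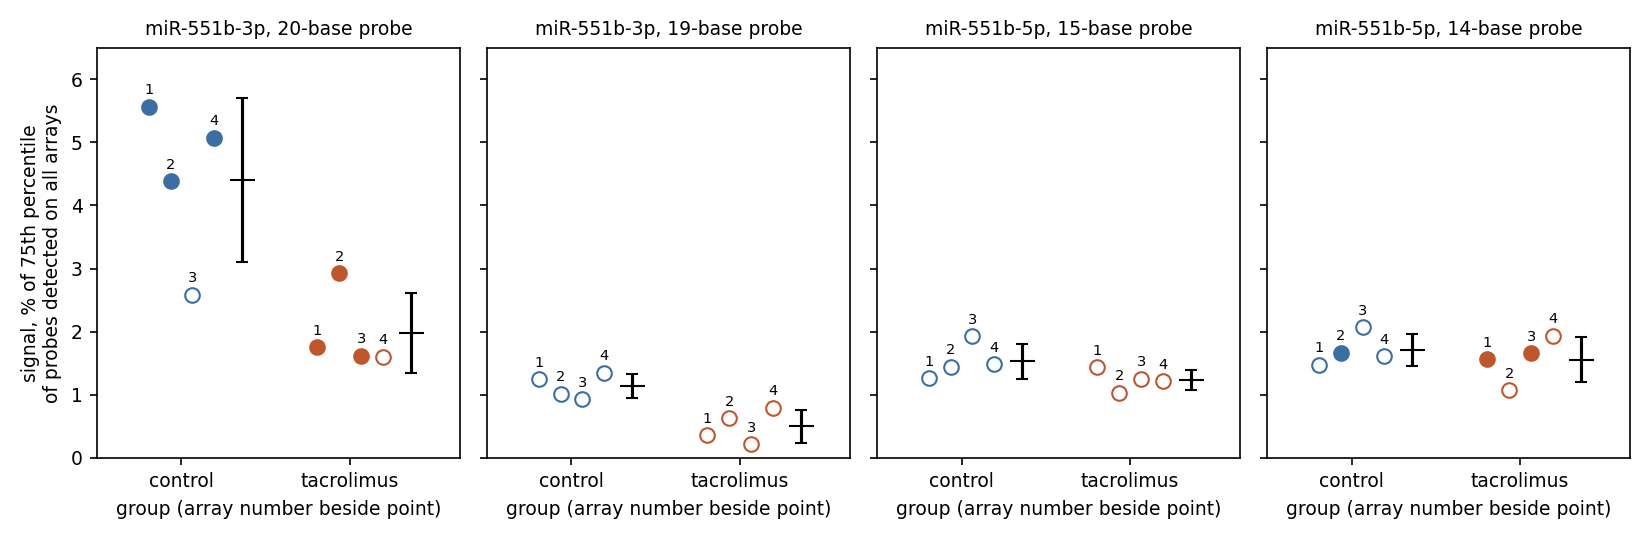
Signal of the 2 probes of miR-551b-3p (left panels) and the 2 probes of miR-551b-5p (right panels) on each array, as a percentage of the array's scale. Points are arrays with their number, filled where the probe was detected and open where it was not, and bars are means ± SD of 4 arrays. On the 20-base probe control 3 (2.59%) and tacrolimus 2 (2.93%) are the only arrays that cross, and the 5p panels show no such gap between the groups.

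The spots of the 20-base probe show how far each array stood from its background. Mean processed intensity over the kept spots was 141 on control 1, 83.9 on control 2, 37.0 on control 3 and 88.2 on control 4. It was 39.1, 66.4, 26.7 and 35.5 on tacrolimus 1 to 4. These spots were well above background in 20 of 20, 19 of 19, 3 of 19 and 18 of 18 cases on the controls, and in 16 of 19, 18 of 18, 10 of 17 and 1 of 16 on the tacrolimus arrays. The low values of control 3 and tacrolimus 4 are thus those with the fewest spots above background.

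Against the negative control spots of the same array, the probe's mean stood 12.9, 15.8, 2.99 and 17.3 SDs above their mean on controls 1 to 4. On tacrolimus 1 to 4 it stood 6.29, 12.6, 4.96 and 1.41 SDs above. Spots varied most on tacrolimus 4, from -31.7 to 144 with an SD of 37.0, and on control 3, with an SD of 17.6. On the other arrays that SD was 5.21 to 10.8. The spots of this probe thus disagreed most on the same 2 arrays that did not detect it.

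**Figure D2:**
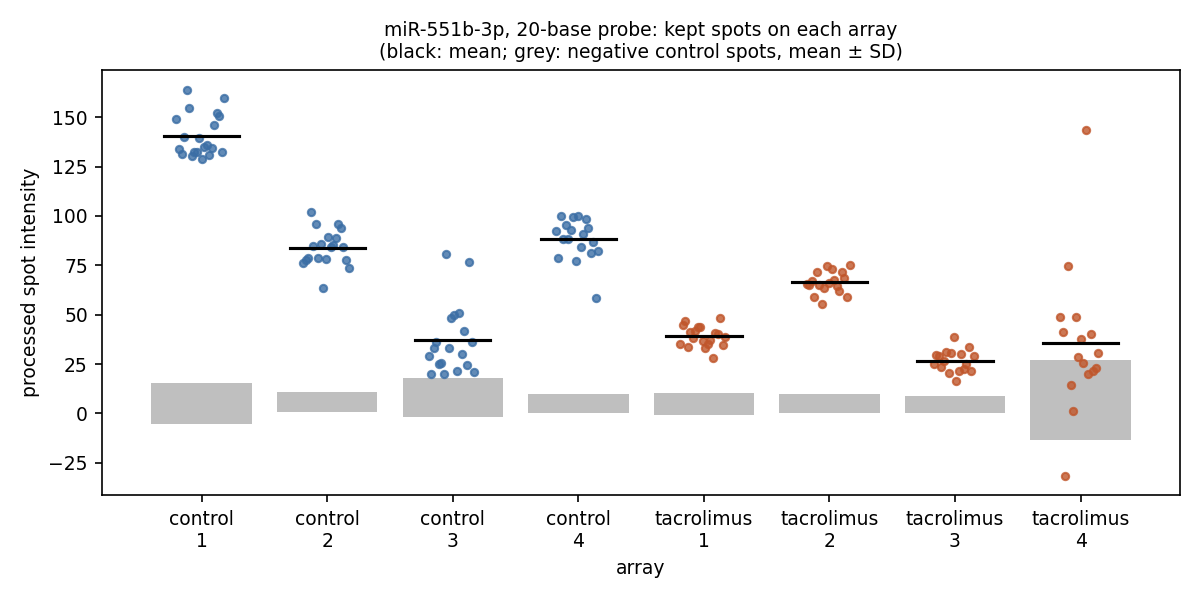
Processed intensity of every kept spot of the 20-base miR-551b-3p probe (points) on the 8 arrays, with the array's mean (black line) and the mean ± SD of its negative control spots (grey). The spots of 7 arrays lie above the grey band, those of control 3 and tacrolimus 3 closest to it, while spots of tacrolimus 4 range from -31.7 to 144 and in part lie within or below it.

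Spots at the same position can be set against each other within a slide column, which held 1 control and 1 tacrolimus array. After scaling, the tacrolimus spot was the lower at 19 of 19 positions in column 1 and at 17 of 17 in column 2. In column 3 this was so at 14 of 16 positions, and in column 4 at 13 of 14, or 63 of 66 in all. Spots of 1 array share its RNA and are no replicates of the treatment, so these counts describe only how evenly the difference lay over the array.

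Before background subtraction, and without scaling between arrays, the groups overlapped more. The mean pixel signal of the same spots was 209, 139, 91.0 and 138 on controls 1 to 4, and 91.5, 117, 74.4 and 103 on tacrolimus 1 to 4. Control 3 here lay under tacrolimus 1, 2 and 4. In the unscaled processed intensities it lay under tacrolimus 1 and 2, so part of the added overlap goes with the missing scaling. The software subtracted 68.1, 55.0, 54.0 and 50.1 on the controls and 52.4, 50.1, 47.7 and 68.0 on the tacrolimus arrays. On control 3 and on tacrolimus 1, 3 and 4 more was subtracted than remained.

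The 19-base probe, which lacks the partner of base 2, was detected on 0 of 8 arrays. Its scaled signal was 1.25%, 1.02%, 0.932% and 1.35% on controls 1 to 4 and 0.361%, 0.624%, 0.218% and 0.793% on tacrolimus 1 to 4. All tacrolimus values lay below all control values, but all 8 lay under the floor of 1.60%. That floor is the median over the 8 arrays of the dimmest detected probe, so these values have only a bound and no fold is given. Its mean stood at most 3.81 SDs above the negative controls, on control 4, and was 0.22 SDs below them on tacrolimus 3.

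miR-551b-5p, the other product of the hairpin, was too dim to show whether it differed in the same way. Its 14-base probe was detected on control 2, tacrolimus 1 and tacrolimus 3, and its 15-base probe on 0 arrays, so it was too dim to be tested. On the 14-base probe the signal was 1.48%, 1.67%, 2.07% and 1.61% on controls 1 to 4, and 1.57%, 1.07%, 1.66% and 1.94% on tacrolimus 1 to 4. The groups overlapped, with means of 1.71% ± 0.257 and 1.56% ± 0.362 (SD, n = 4 each). Whether the arms differ in their response was not tested.

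The software's own total for miR-551b-3p, which the authors deposited as their value table, was built from different probes on different arrays. It was 54.3, 40.2, 10.5 and 43.0 on controls 1 to 4 and 15.2, 25.9, 10.4 and 0.1 on tacrolimus 1 to 4, on a linear scale that is not normalized between arrays. On controls 2 and 4 it equalled the sum of both probes, and on controls 1 and 3 and tacrolimus 1, 2 and 3 that of the 20-base probe alone. Tacrolimus 4 was listed at 0.1, the value for a miRNA not detected. Scaled in the same way, the total differed by -3.03 between the groups, and by -1.28 with tacrolimus 4 left out. The 20-base probe's total alone differed by -1.20.

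Among all 194 miRNAs that were detected on at least 4 arrays, miR-551b-3p had the lowest difference. The median difference over these was 0.04, and 79 (40.7%) lay below 0. In limma 6 of 194 (3.09%) passed an adjusted p of 0.05, of which 0 were lower with tacrolimus, and at an unadjusted p under 0.05 there were 30 (15.5%), of which 9 (4.64%) were lower. With arrays scaled to the median of the detected probes 8 passed, 2 lower and 6 higher, and 0 passed unscaled or with the 75th percentile over every probe (14 and 2 at an unadjusted p under 0.05). That percentile lies among probes not detected, since 9.60% to 15.2% of probes were detected on an array. Leaving out either tacrolimus 1 or 4, or control 1 or 2, brought the count to 0 (22 to 30 at an unadjusted p under 0.05), 1 without control 3, and 2 without control 4 or tacrolimus 2. Every tacrolimus array lay below every control array for 4 of 194 (2.06%), and above every control array for 16 (8.25%), and miR-551b-3p was in neither set. Nothing is read from these shares, since miR-551b-3p was picked from this contrast. Its spread within groups was also wide, with a pooled SD of 0.46 against a median of 0.13, and 7 of the 194 had a wider one.

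The next lowest differences were smaller. miR-486a-5p and miR-451a, both abundant in red blood cells, stood at -0.67 each, and miR-144-3p, made from the same transcript as miR-451a, at -0.62. Of these, miR-486a-5p was detected on only 2 control and 3 tacrolimus arrays and lay at the floor on tacrolimus 4. miR-3473a stood at -0.42 and miR-338-3p at -0.29. In limma these 5 missed the threshold (adjusted p = 0.273, 0.273, 0.301, 0.402 and 0.0554).

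**Figure D3:**
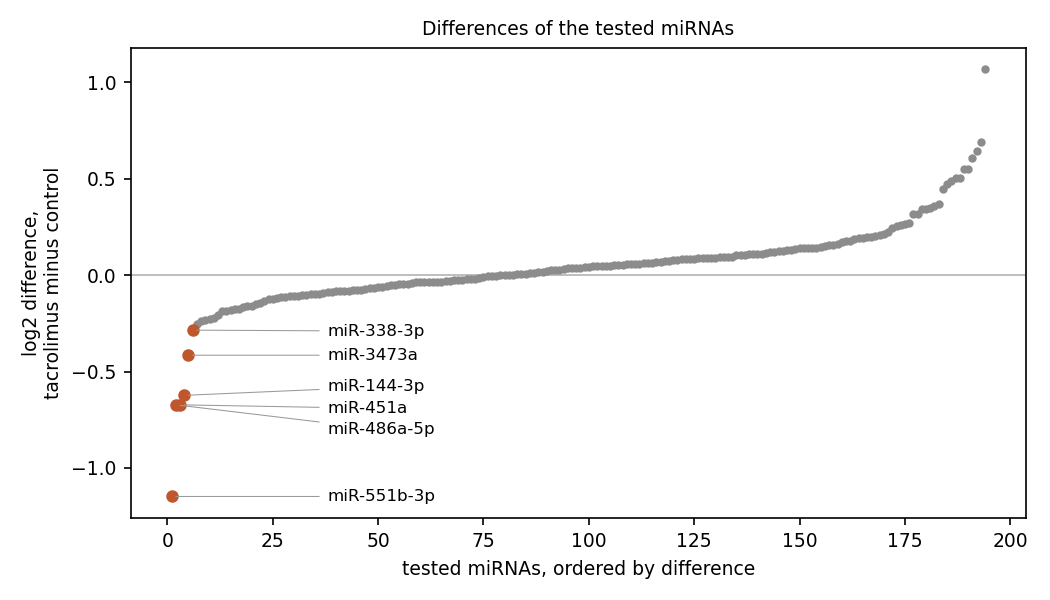
Log2 difference, tacrolimus minus control, of the 194 tested miRNAs in order of size (1 point each, n = 4 arrays a group), with the 6 lowest in colour and named. miR-551b-3p at -1.15 stands below miR-486a-5p and miR-451a at -0.67.

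The red blood cell miRNAs give a measure of blood in the samples to set beside this. Of 5 such miRNAs 3 were tested, and 3 of 3 lay below 0 with a median of -0.67, where 79 of all 194 (40.7%) lay below 0. In limma 0 passed the threshold, where 6 of all 194 (3.09%) did. The mean log2 signal of these 3 ranged from -2.96 to -1.49 on the control arrays and from -3.01 to -2.61 on the tacrolimus arrays. Controls 1 and 2 were high in both that mean (-1.49 and -1.89) and miR-551b-3p (5.56% and 4.38%), while control 4 was low in that mean (-2.96) and high in miR-551b-3p (5.07%). miR-551b-3p and miR-451a correlated at r = 0.62 over the 8 arrays, and at r = 0.21 with group means removed.

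Leukocyte miRNAs had differences of the opposite sign, with 6 of 6 tested members above 0, a median of 0.45 (0.21 with normexp) and 0 past the threshold in limma. Of all 194 tested, 79 (40.7%) lay below 0 and 6 (3.09%) passed. Among the leukocyte miRNAs the myeloid miR-223-3p had a difference of 0.61 (adjusted p = 0.0911, limma), and miR-142a-3p, which blood-forming cells share, one of 0.64 (adjusted p = 0.191, limma). The list's mean log2 signal was -3.95 to -3.29 on control and -3.44 to -3.09 on tacrolimus arrays. Neural and endocrine miRNAs had 4 of 7 members tested and 0 past the threshold in limma. Their median was -0.05, which turned to 0.11 without scaling, and their defining members miR-124-3p, miR-9-5p and miR-375-3p were detected on 0 arrays. The 2 endothelial miRNAs had a median of 0.01, which fell below 0 with median scaling, quantile normalization and normexp. None of the striated muscle miRNAs was tested, and miR-1a-3p passed detection on 2 tacrolimus arrays and 0 controls. The part of any other cell type in the miR-551b-3p difference was not tested.

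The miRNAs linked to the drug's target were looked at beside it. Of 8 miRNAs linked to calcineurin and NFAT 5 were tested, and 1 rose, miR-199b-5p, a miRNA tied to calcineurin signalling in the heart (0.50, SE 0.106, adjusted p = 0.0476, limma), where 6 of all 194 tested (3.09%) passed. The others that passed, none of them on this list, were also higher, each at adjusted p = 0.0476 (limma). They were miR-214-3p (0.69), miR-1949 (0.55), miR-574-5p (0.50), and the similarly named miR-199a-3p (0.49) and miR-199a-5p (0.47). Whether the rise of miR-199b-5p is separate from theirs was not tested. miR-199b-5p lay above 0 in all 20 alternatives but passed in 4 of them (limma adjusted p = 0.0297 to 0.995). Of the 8 arrays only tacrolimus 3 could be left out without losing its call. The other 4 tested members of the list did not pass the test, and the median of the 5 was -0.05. It turned to 0.10 without scaling and to 0.02 with quantile normalization. All 6 miRNAs linked to STAT3 were tested and lay above 0 with the arrays scaled as reported, where 79 of all 194 (40.7%) lay below 0. The lowest, miR-17-5p (0.035), was close to the floor and was detected on 1 control and 3 tacrolimus arrays. The list had a median of 0.11 and 0 past the threshold in limma. That median was 0.037 with median scaling and 0.26 without scaling. The highest was miR-21a-5p, which STAT3 induces, at 0.45 (adjusted p = 0.104, limma), and miR-20a-5p stood at 0.11.

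The miRNAs most like miR-551b-3p over the 8 arrays had differences below 0, which a likeness to a miRNA chosen for its difference favours, and none of the 5 passed in limma (adjusted p = 0.0554 to 0.488). By Pearson correlation of log2 signals these were miR-338-3p (r = 0.65), miR-532-3p (r = 0.63), miR-451a (r = 0.62), miR-677-3p (r = 0.56) and miR-144-3p (r = 0.56), against a median of -0.19 over the 193 other tested miRNAs. With group means removed the order was another, and miR-338-3p stood at r = -0.43 and miR-677-3p at r = -0.25. The most like by that measure were miR-125a-5p (r = 0.85), miR-211-3p (r = 0.79), miR-3069-3p (r = 0.78), miR-130a-3p (r = 0.76) and let-7e-5p (r = 0.75). None of these 5 differed between the groups past the threshold in limma, with differences of 0.02 to 0.23. miR-532-3p was detected on 1 control and 3 tacrolimus arrays and miR-3069-3p on 2 and 3. Both lay mostly close to the floor, which limits what their r can show. All values of an array share its RNA, labelling and scaling, so these correlations are a description.

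The size of the miR-551b-3p difference depended on how dim signals were handled more than on which array was left out. Leaving out each array in turn gave -1.38 (without control 3) to -1.02 (without control 1). Over scalings it was -1.16 to -0.85, the latter with the 75th percentile over every probe, which lies among probes not detected. No scaling gave -0.94 while the median of all tested miRNAs stood at 0.19. With the normexp background model the difference was -0.59, but an offset of 50 was added to every signal there. Such an offset draws the log2 values of dim signals together. Raising the floor 2 times gave -0.48, but every tacrolimus array and control 3 then lay at the floor (-4.96 on the log2 scale). With values of both groups raised, this is no measure of the difference and no bound on it. With normexp the groups no longer overlapped, the lowest control being control 3 at -3.70 and the highest tacrolimus array tacrolimus 2 at -4.06 on the log2 scale. Nothing is read from this, since the offset was added before scaling. The offset therefore weighed more on control 3, whose scale as reported was 1431, than on tacrolimus 2, at 2270.

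**Figure D4:**
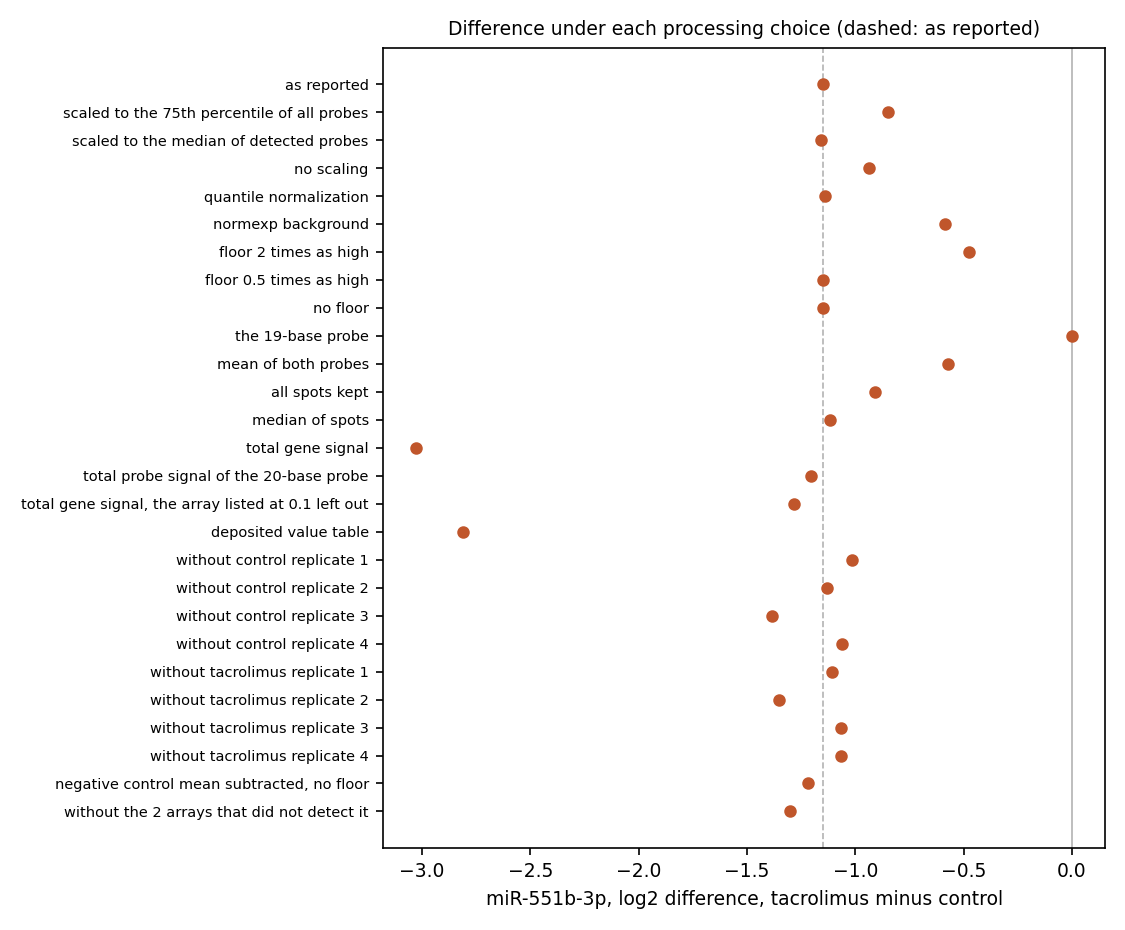
Log2 difference of miR-551b-3p, tacrolimus minus control, as reported (dashed line, -1.15) and under 26 of the 28 other processing choices (1 point each). The replicate block, which gives the same value, and the 19-base probe without a floor are not drawn. All points lie below 0 except the 19-base probe with the floor (0), and the totals that list tacrolimus 4 at 0.1 lie farthest left (-3.03 and -2.81).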

How the data were processed

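Spot intensities of the one-colour (Cy3) Agilent mouse miRNA arrays are on a linear scale and, per the file headers, were extracted by the authors with Agilent's software (Feature Extraction, 10.7.3.1), which subtracted background and spatial trends and did not scale between arrays. Their deposited value table matched that software's gene totals in 100% of cells (tolerance 1e-06). limma appears in the submitters' processing notes, its role unstated. The kit that the labels name for labelling is one for mRNA.

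R 4.3.3 was used with limma 3.58.1. Spots marked as non-uniform or population outliers were left out (7.36% to 11.2% per array), the rest of a probe averaged, arrays scaled, dim values raised to a floor (-5.96 on the log2 scale, from each array's lowest detected probe, median of 8), and log2 taken. The brightest probe stood for a miRNA. Of 1023 miRNAs 194 were tested with limma (lmFit, eBayes, two-sided, Benjamini-Hochberg) and 829 set aside. The limma step was tested on simulated data. The miRNA, the lists and the naming rule (the most like miRNAs, the 5 lowest differences, called or leading list members) were chosen with earlier results of these data known. Alternatives were other scalings, backgrounds, floors, probes, spot summaries, filters, a replicate block and leaving out arrays.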

Additional observations from a re-analysis of the deposited data

Results flagged for a closer look

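In 3 of 26 groups of 4 arrays examined for the 13 miRNAs named by pattern or difference, 1 array lay far from the other 3. Chance does so in about 1 in 20 groups, but these miRNAs were chosen by their values, miR-125a-5p for following miR-551b-3p within groups, so the number is not read against it. For miR-551b-3p this was tacrolimus 2, whose log2 signal exceeded the mean of tacrolimus 1, 3 and 4 by 0.82, and without it the difference was -1.35. The same array stood 0.20 above the others for miR-125a-5p. For miR-451a the array apart was tacrolimus 4, with a gap of -0.39 to the mean of its group's other 3.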

How the results depend on the processing

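The miR-551b-3p difference lay below 0 in 27 of 28 alternatives and moved by more than the spread between replicates (0.46) in 6. These were normexp (-0.59), the floor set 2 times higher up (-0.48, with values of both groups at the floor) and both probes averaged (-0.57). The others were the 19-base probe with its values at the floor (0), the total gene signal (-3.03) and the deposited value table (-2.81). Nothing is read from the sign, since the miRNA was chosen for its lower signal. No floor, a floor 0.5 times as high and the replicate block could not change the value (-1.15 each). The 19-base probe at the floor could only give 0. Without single arrays the difference ranged from -1.38 to -1.02. Chosen after seeing the data were the 19-base probe without a floor, for which no value is given since no array detected it, the negative control mean subtracted (-1.22), the totals with tacrolimus 4 left out or of the 20-base probe, and leaving out both arrays that did not detect it. With the replicate block (replicate number, equal to slide column) the difference stayed at -1.15, and the count of tested miRNAs past the threshold in limma went from 6 to 0 (31 at an unadjusted p under 0.05). Same-numbered arrays deviated together only weakly (r = 0.09 to 0.14), so the number was not taken as pairing.

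Unscaled arrays also gave 0, as did scaling by the 75th percentile over every probe, the higher floor, no filter, averaged probes, and trend with robust estimation (2 to 31 at an unadjusted p under 0.05), 1 with normexp, and 3 without the 2 arrays that did not detect miR-551b-3p. Without single arrays the count ranged from 0 to 6 (without tacrolimus 3). The causes of these changes were not tested. List medians moved beyond their spread for calcineurin and NFAT (-0.12 with median scaling, 0.10 unscaled, 0.021 with quantile normalization), STAT3 (0.037 with median scaling, 0.26 unscaled), kidney tubule (0.025 and 0.25), endothelium (0.17 unscaled), neural and endocrine (0.11 unscaled) and leukocyte (0.21 with normexp). miR-551b-5p was detected on too few arrays to be tested, so its alternatives gave no value. Signal over background limits the values, since on 4 of 8 arrays the signal left was smaller than the background subtracted.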

Other observations

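Of the 194 tested miRNAs, each with more than 1 probe, the software's total gene signal equalled the sum of all probes (within 1%) on every array with detection for 129, on some of them for 45 and on none for 20. miR-551b-3p is one of the 45.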
